A study of Mus musculus with 8 samples.

Results

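The collagen genes were followed in adipose-derived stem cells of 3 white fat depots. They were taken as every symbol of the count table made of Col, a type number, the letter a and a chain number, which gave 43 of 17967 listed symbols. There were 11 fibrillar, 9 network-forming, 8 FACIT (fibril-associated collagens with interrupted triple helices), 6 collagen VI and 4 transmembrane collagen genes, and 5 multiplexin and other collagen genes. Bulk RNA sequencing was run on cells that had been released from fat with type II collagenase and sorted by flow cytometry. All animals were male C57BL/6J wild type mice on a chow diet, and no allele or agent was added in any group. SWAT stands for the subcutaneous fat of the groin, EWAT for the epididymal and NWAT for the perirenal depot, and each had 2 libraries. The labels give neither the age of the mice nor the antibodies of the sort, and the mesenteric depot was not analysed here. Whether the paired libraries of one depot are separate animals is not stated, and a p-value here therefore reflects library-to-library spread that could be technical.

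Every collagen molecule is a trimer of alpha chains wound into a triple helix, and each chain has its own gene. Chains are hydroxylated, glycosylated and folded in the endoplasmic reticulum with the help of the chaperone HSP47, exported in large carriers, trimmed outside the cell and cross-linked by lysyl oxidases. Fibrillar collagens build the tensile fibres of the stroma, collagen IV the sheet of the basement membrane that surrounds each adipocyte, and collagen VI the beaded filaments that lie between them and are abundant in fat.

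Start regions are shown for 7 collagen genes on which the results below turn. Col1a2 and Col3a1 had high mean FPKM (a level scaled by gene length and library size), and Col6a5 differed widely between depots. Col4a1 and Col4a2, and Col4a5 and Col4a6, are neighbours read in opposite directions, and they moved together in one pair and by unequal amounts in the other. Each sequence runs from 250 bases before to 50 bases after a RefSeq start on GRCm38.p6, 5′ to 3′ on the gene's strand. They lie at chr6:4505368-4505667 (Col1a2, plus strand), chr1:45311288-45311587 (Col3a1, plus), chr9:105960594-105960893 (Col6a5, minus), chr8:11312777-11313076 (Col4a1, minus), chr8:11312555-11312854 (Col4a2, plus), chrX:141475169-141475468 (Col4a5, plus) and chrX:141474027-141474326 (Col4a6, minus). The first start listed for each gene was taken, and any other start is not printed. That of Col6a5 (105960643) lies inside the gene's annotated span, chr9:105856070-105962463. Those of Col4a1, Col4a5 and Col4a6 also lie inside the spans given below. Capitals mark 3 motifs, each searched in the given letters and in their reverse complement. The first is CCAAT, the core of the CCAAT box. The next is TATAAA, the core of the TATA box. The last is GGGCGG, the core of the GC box. No marked matches overlapped.
Col1a2: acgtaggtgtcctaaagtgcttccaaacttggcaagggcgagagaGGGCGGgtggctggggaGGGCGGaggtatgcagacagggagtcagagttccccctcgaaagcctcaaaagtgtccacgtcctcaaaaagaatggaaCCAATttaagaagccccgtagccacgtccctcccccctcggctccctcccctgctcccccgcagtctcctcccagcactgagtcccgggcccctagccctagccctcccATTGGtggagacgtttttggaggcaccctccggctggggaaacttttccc
Col3a1: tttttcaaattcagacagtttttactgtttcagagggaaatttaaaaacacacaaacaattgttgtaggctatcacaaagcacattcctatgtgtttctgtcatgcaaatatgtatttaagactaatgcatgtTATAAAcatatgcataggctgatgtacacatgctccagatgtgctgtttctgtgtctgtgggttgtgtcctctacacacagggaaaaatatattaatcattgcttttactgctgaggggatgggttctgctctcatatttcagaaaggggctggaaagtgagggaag
Col6a5: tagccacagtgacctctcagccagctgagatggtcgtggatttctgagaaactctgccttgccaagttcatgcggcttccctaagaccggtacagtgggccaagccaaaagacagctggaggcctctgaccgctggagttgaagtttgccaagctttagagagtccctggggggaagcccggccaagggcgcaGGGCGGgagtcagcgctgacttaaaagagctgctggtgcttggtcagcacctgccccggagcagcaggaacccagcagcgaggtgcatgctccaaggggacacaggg
Col4a1: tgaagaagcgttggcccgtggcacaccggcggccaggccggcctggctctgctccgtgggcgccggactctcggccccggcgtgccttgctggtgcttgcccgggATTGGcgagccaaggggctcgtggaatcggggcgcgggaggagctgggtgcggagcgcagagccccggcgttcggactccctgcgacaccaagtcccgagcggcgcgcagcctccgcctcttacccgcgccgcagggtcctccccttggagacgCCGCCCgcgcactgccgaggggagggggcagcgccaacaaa
Col4a2: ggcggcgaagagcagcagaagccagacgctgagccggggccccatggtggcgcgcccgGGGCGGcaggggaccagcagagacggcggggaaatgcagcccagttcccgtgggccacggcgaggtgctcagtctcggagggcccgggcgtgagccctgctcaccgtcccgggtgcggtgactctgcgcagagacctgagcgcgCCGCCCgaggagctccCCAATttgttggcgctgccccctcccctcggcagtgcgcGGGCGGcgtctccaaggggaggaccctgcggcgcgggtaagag
Col4a5: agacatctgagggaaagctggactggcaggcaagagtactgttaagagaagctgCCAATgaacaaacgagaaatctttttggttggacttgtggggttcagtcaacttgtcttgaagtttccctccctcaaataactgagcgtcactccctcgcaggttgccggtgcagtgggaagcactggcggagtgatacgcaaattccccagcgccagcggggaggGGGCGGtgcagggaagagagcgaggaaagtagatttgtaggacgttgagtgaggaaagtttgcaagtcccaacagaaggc
Col4a6: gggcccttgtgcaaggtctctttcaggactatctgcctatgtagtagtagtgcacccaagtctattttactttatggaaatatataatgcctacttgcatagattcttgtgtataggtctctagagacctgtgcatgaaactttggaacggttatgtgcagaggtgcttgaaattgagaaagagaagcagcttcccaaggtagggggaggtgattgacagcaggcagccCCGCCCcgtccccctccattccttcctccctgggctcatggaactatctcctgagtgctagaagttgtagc

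CCAAT was matched in 37.4% of 32851 RefSeq start regions of this length and in 13 of 37 collagen windows, which covered 34 of the 43 genes. TATAAA was matched in 13.6% of all windows and in 5 of the 37, and GGGCGG in 35.7% of all windows and in 23 of the 37. The Col1a2 window held CCAAT 109 bases before the start and its reverse at the start itself. Col3a1 held TATAAA 117 bases before the start and no other match, and Col6a5 held GGGCGG 57 bases before it. The starts taken for Col4a1 and Col4a2 lie 21 bases apart on opposite strands, so their windows share sequence. Those taken for Col4a5 and Col4a6 lie 1343 bases apart. These matches are letters in a window and do not show that a factor binds there.

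Each library held from 20026377 to 20638684 estimated counts, and 13694 genes passed a filter on low counts. In edgeR's quasi-likelihood model, 41.7% of the tested genes differed among the depots with an adjusted p (Benjamini-Hochberg) below 0.05, and a call means passing that threshold. Levels are CPM, counts scaled to one common library size with TMM factors. Markers of the labelled cell type were present, with 11 of 11 progenitor markers tested, Pdgfra at 936 to 1443 CPM and Cd34 at 1227 to 1672. Members of that list also differed between depots, with 6 higher and 2 lower in SWAT than in EWAT, 4 and 2 in SWAT than in NWAT and 3 and 5 in EWAT than in NWAT. Of all genes, 18.0% and 18.7%, 9.07% and 9.83%, and 13.3% and 14.0% were called in these directions. The 2 of 11 lower in SWAT than in EWAT were near that share. Pi16 stood at 2056 and 1804 CPM in SWAT, 587 and 596 in EWAT and 3754 and 2973 in NWAT, and Dpp4 at 517 and 464, 238 and 227, and 728 and 654. Thy1 stood at 509 and 471, 162 and 181, and 287 and 261 CPM, and Dcn at 8190 and 8593, 14963 and 15321, and 8754 and 9646. EWAT was thus lowest for Pi16, Dpp4 and Thy1 and highest for Dcn. In a bulk sample, fewer cells of a type and less RNA per cell cannot be told apart. Most markers of other cells were low, but they moved between depots. Exceptions to the low level were Pdgfrb at 293 to 508 CPM, Tek at 178 to 355 and Fabp4 at 46.8 to 155. Wt1 stood at 106 to 161 CPM in EWAT and NWAT. Which cells these transcripts came from was not tested. The 8 mesothelial markers summed to 3.51 to 4.27 CPM in SWAT, 160 to 170 in EWAT and 119 to 146 in NWAT. In EWAT and NWAT almost all of the sum was Wt1, which had 0 counts in both SWAT libraries. In SWAT the sum was mostly Krt19. The defining markers Msln and Upk3b reached at most 1.30 and 3.64 CPM. Krt19 of that list ran otherwise, at 3.18 and 3.11 CPM in SWAT, 0.607 and 0.809 in EWAT and 6.39 and 6.21 in NWAT. The 8 macrophage markers summed to 16.8 to 25.7 CPM in SWAT, 38.8 to 40.0 in EWAT and 24.3 to 24.9 in NWAT. The 8 pericyte and smooth muscle markers summed to 521 to 532, 349 to 383 and 347 to 350 CPM, mostly Pdgfrb, with Myh11 at 3.67 to 5.22, 23.8 to 27.1 and 1.02 to 1.91. The 8 endothelial markers summed to 245 to 282, 201 to 234 and 348 to 368 CPM, mostly Tek, with Pecam1 and Cdh5 at no more than 8.63 and 6.80. The 6 Schwann cell markers summed to at most 26.1 CPM and the 6 adipocyte markers to at most 163, mostly Fabp4. The part of these cells, or of the shifts among progenitor markers, in the collagen differences was not tested.

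Of the 43 collagen genes, 35 passed the count filter and 30 of those differed among the depots. In SWAT against EWAT, 17 collagens were higher and 11 lower, beside 18.0% and 18.7% of all genes (36.7% in either direction). In SWAT against NWAT, 18 were higher and 8 lower, beside 9.07% and 9.83% of all genes (18.9% in either direction). Without SWAT replicate 2 or without NWAT replicate 1, 5 were lower in place of 8. In EWAT against NWAT, 12 were higher and 7 lower, beside 13.3% and 14.0% of all genes (27.3% in either direction), and 4 were lower without NWAT replicate 1. The median log2 fold changes of the collagens were 0.34, 0.61 and 0.04 in these 3 comparisons, against medians of -0.01, -0.02 and 0.01 over all genes tested. Of the genes lower in SWAT, 4 of the 11 against EWAT (Col6a4, Col8a2, Col13a1 and Col17a1) and 3 of the 8 against NWAT (the same without Col13a1) passed the filter only through depots where they were high, so these counts are no support when set beside all genes. Among the 12 higher in EWAT than in NWAT, Col13a1 passed the filter only through EWAT and is no support there either. With a count minimum of 50, which left 29 collagens, 8 and 7 were lower and 18 and 18 higher in SWAT. These comparisons share their libraries, so their counts are not independent.

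**Figure D1:**
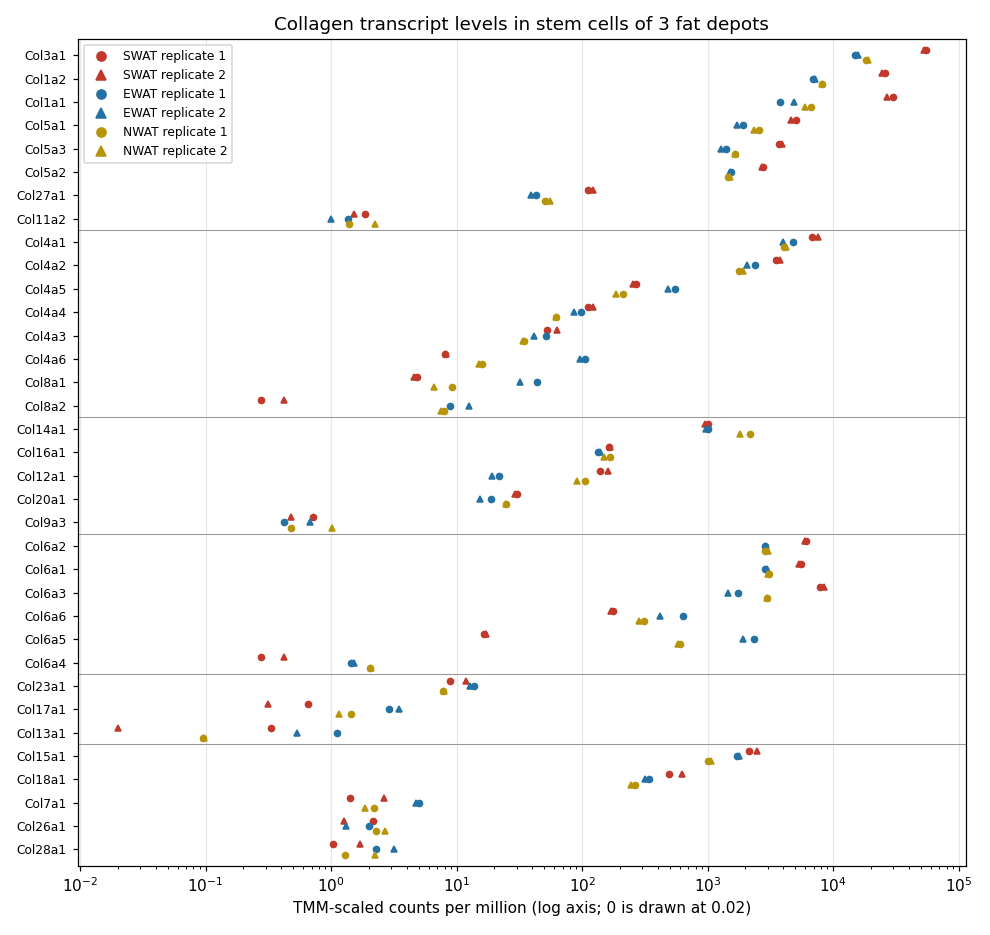
TMM-scaled CPM of the 35 tested collagen genes on a log axis, 1 point per library, ordered by class (fibrillar, network-forming, FACIT, collagen VI, transmembrane, multiplexin and other) with lines between classes. Points at the left edge stand for 0, and Col6a5 runs from 16.5 CPM in SWAT to 2322 in EWAT.

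The weight of collagen RNA differed between depots. Collagen genes took 13.95% and 13.96% of the counts of the SWAT libraries, 5.49% and 5.61% in EWAT and 6.06% and 6.02% in NWAT. SWAT stood apart from both, and the EWAT and NWAT libraries lay close together without overlap. With 2 libraries a depot an exact two-sided permutation test cannot give a p below 0.333, so shares are given as values. Summed FPKM of all collagens were 24575 and 24532 in SWAT, 9562 and 9877 in EWAT and 10613 and 10564 in NWAT.

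The composition also differed. Fibrillar chains made up 77.4% and 75.9% of the summed collagen FPKM in SWAT, 58.3% and 61.2% in EWAT and 65.7% in each NWAT library. Collagen VI made up 14.1% and 14.4% in SWAT, 21.9% and 21.0% in EWAT and 19.0% and 19.2% in NWAT. Network-forming chains took 5.88% and 6.67%, 13.2% and 11.2%, and 9.07% and 9.45%. FACIT collagens had their highest share in NWAT, with 3.82% and 3.17%, against 2.09% and 2.02% in EWAT and 0.760% and 0.758% in SWAT. Summed FPKM of collagen VI fell less between depots than that of the fibrillar chains. The fibrillar sum was 19031 and 18629 in SWAT, 5578 and 6049 in EWAT and 6973 and 6941 in NWAT. The collagen VI sum was 3459 and 3535 in SWAT, 2098 and 2076 in EWAT and 2019 and 2030 in NWAT.

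**Figure D2:**
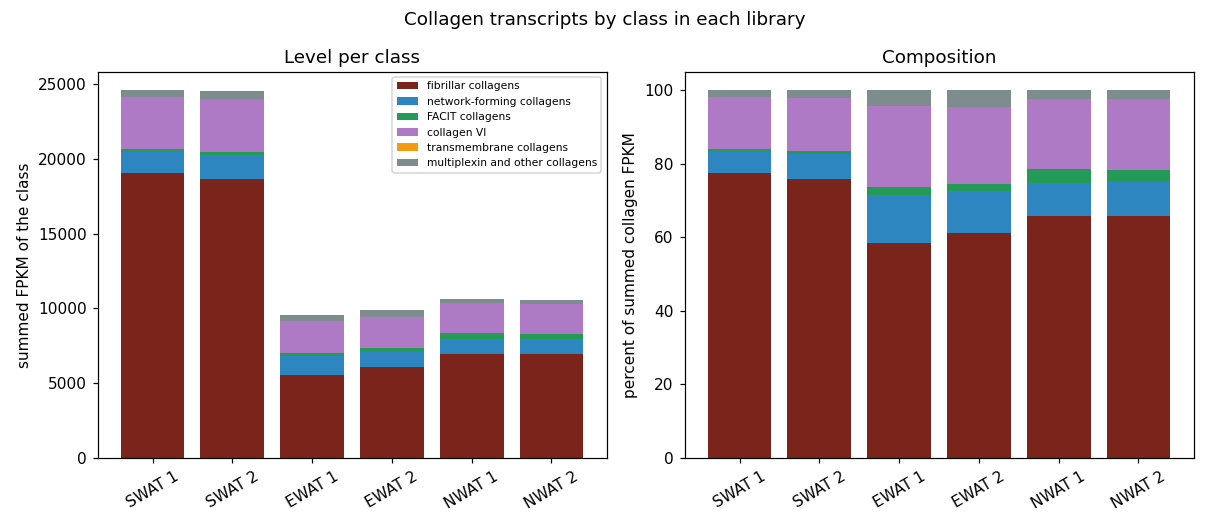
Collagen FPKM by class in each of the 6 libraries, as summed FPKM per class (left) and as a percent of all collagen FPKM (right). The SWAT bars reach 24575 and 24532 and the others 9562 to 10613, and the fibrillar share is highest in SWAT; the transmembrane class is too small to be seen.

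The fibrillar genes were the ones that most uniformly favoured SWAT. Of 8 tested, 7 were higher in SWAT than in EWAT and the same number than in NWAT, and 0 were lower, also at an unadjusted p under 0.05 and by DESeq2. Of all genes, 18.0% were higher and 18.7% lower in SWAT than in EWAT, and 9.07% and 9.83% than in NWAT. In either comparison, 0 of 8 lower was near that share. The class medians were 1.51 and 1.18 on the log2 scale. Col1a1 (chr11:94936224-94953042), the major chain of type I collagen, stood at 29863 and 26647 CPM in SWAT, 3760 and 4903 in EWAT and 6632 and 6010 in NWAT. Both SWAT libraries lay far above the other 4. The log2 fold change was 2.71 ± 0.16 (SE) against EWAT, a 6.52-fold difference (edgeR adjusted p = 1.49e-07), and 2.16 ± 0.16 against NWAT, 4.47-fold (edgeR adjusted p = 2.43e-06). Col1a2 (chr6:4505618-4541543), the partner chain of type I collagen, stood at 26019 and 24486 CPM in SWAT, 6899 and 7107 in EWAT and 8075 and 8134 in NWAT. It was 3.61-fold higher in SWAT than in EWAT (log2 1.85 ± 0.12, edgeR adjusted p = 4.51e-07) and 3.12-fold higher than in NWAT (1.64 ± 0.12, edgeR adjusted p = 3.17e-06). Col3a1 (chr1:45311538-45349706), whose chain forms type III collagen, the partner of type I in soft tissue, stood at 54390 and 53336 CPM in SWAT, 14949 and 15634 in EWAT and 18284 and 19094 in NWAT. Per length it was the highest collagen in every library, at 8671 and 8752 FPKM in SWAT, 2806 and 3011 in EWAT and 3390 and 3506 in NWAT.

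The 2 chains of type I collagen did not keep one ratio. Col1a1 over Col1a2 on the FPKM scale was 1.01 and 0.957 in SWAT, 0.480 and 0.607 in EWAT and 0.723 and 0.650 in NWAT. SWAT lay above the others, and the EWAT and NWAT libraries did not overlap. Col3a1 over Col1a1 was 1.94 and 2.13 in SWAT, 4.24 and 3.40 in EWAT and 2.94 and 3.39 in NWAT.

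Type V collagen is a minor chain set that starts and limits fibrils. Col5a1 stood at 5042 and 4642 CPM in SWAT, 1903 and 1725 in EWAT and 2569 and 2345 in NWAT. Col5a2 stood at 2781 and 2696 in SWAT, 1526 and 1499 in EWAT and 1439 and 1501 in NWAT. Col5a3, the least widespread of the 3 chains, stood at 3728 and 3932 in SWAT, 1411 and 1265 in EWAT and 1646 and 1645 in NWAT. All 3 were higher in SWAT than in either depot, and Col5a2 overlapped between EWAT and NWAT. Their log2 fold changes against EWAT were 1.42 ± 0.13, 0.86 ± 0.11 and 1.52 ± 0.12, and against NWAT 0.98 ± 0.12, 0.90 ± 0.11 and 1.22 ± 0.12 (edgeR adjusted p at most 0.000191). Col27a1, a fibrillar collagen known from cartilage, was a rare transcript with the same order, at 111 and 122 CPM in SWAT, 43.1 and 39 in EWAT and 50.8 and 54.9 in NWAT. It was higher in SWAT by 1.51 ± 0.11 against EWAT and 1.14 ± 0.11 against NWAT on the log2 scale (edgeR adjusted p = 6.83e-07 and 1.54e-05).

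Between EWAT and NWAT the differences of fibrillar genes were smaller, with 3 of 8 lower in EWAT and 0 higher (0 also at an unadjusted p under 0.05). Of all genes, 14.0% were lower and 13.3% higher there, so 0 of 8 higher was near that share. Col1a1 (log2 -0.55 ± 0.15, edgeR adjusted p = 0.0196), Col5a1 (-0.44 ± 0.12, adjusted p = 0.0220) and Col27a1 (-0.37 ± 0.11, adjusted p = 0.0249) were lower in EWAT, and Col1a2 (-0.21), Col3a1 (-0.29) and Col5a3 (-0.30) did not pass. DESeq2 called Col3a1 and Col5a3 as well (DESeq2 adjusted p = 0.0181 and 0.0240), which made 5 lower. Leaving out libraries ended all 3 calls, with 0 left without NWAT replicate 1 and 1 without EWAT replicate 2 or NWAT replicate 2. That of Col1a1 was lost without EWAT replicate 1 (-0.36) or NWAT replicate 1 (-0.47), that of Col5a1 without EWAT replicate 2 (-0.37), NWAT replicate 1 (-0.37) or NWAT replicate 2 (-0.50), and that of Col27a1 without the same 3 libraries (-0.30, -0.42 and -0.31). The calls of Col1a1 (-0.51) and Col27a1 (-0.20) were also lost on log2(FPKM + 1). Of the remaining fibrillar genes, Col11a2 passed the filter at 0.99 to 2.23 CPM and was not called in any pair, and Col2a1, Col11a1 and Col24a1 had 15, 9 and 1 counts over all 6 libraries and were not tested.

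Network-forming collagens moved in opposite directions. The main basement membrane chains Col4a1 and Col4a2 were higher in SWAT, whereas Col4a5, Col4a6 and both collagen VIII genes were higher in EWAT. Col4a1 (chr8:11198423-11312889) stood at 6782 and 7550 CPM in SWAT, 4741 and 3996 in EWAT and 4036 and 4221 in NWAT. Col4a2 (chr8:11312805-11449287) stood at 3509 and 3800 in SWAT, 2362 and 2059 in EWAT and 1764 and 1894 in NWAT. Both were above the other depots in each SWAT library, and Col4a1 overlapped between EWAT and NWAT. Col4a1 was 1.64-fold higher in SWAT than in EWAT (log2 0.71 ± 0.13, edgeR adjusted p = 0.00149) and 1.74-fold higher than in NWAT (0.80 ± 0.13, adjusted p = 0.00130). Col4a2 was higher by 1.65-fold (0.73 ± 0.13, edgeR adjusted p = 0.000955) and 1.998-fold (0.998 ± 0.13, adjusted p = 0.000177). These 2 genes, whose start regions are printed above, kept a near constant FPKM ratio of Col4a1 over Col4a2, at 1.89 and 1.94 in SWAT, 1.96 and 1.89 in EWAT and 2.23 and 2.17 in NWAT, with NWAT above the rest.

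Col4a3 and Col4a4, chains of the specialised basement membranes of the kidney and lung, were rare here. Col4a3 stood at 52.6 and 63.5 CPM in SWAT, 51.6 and 41.6 in EWAT and 34.3 and 34.1 in NWAT, and Col4a4 at 111 and 122, 98.5 and 85.4, and 62.2 in each NWAT library. NWAT was lowest for both, and they also start from one short stretch, on chromosome 1 (Col4a4 chr1:82448419-82587034, Col4a3 chr1:82586921-82722059), where their annotated ends overlap. Their FPKM ratio was 0.500 to 0.579 in all 6 libraries. In SWAT against NWAT, Col4a3 was higher by 0.76 ± 0.13 and Col4a4 by 0.91 ± 0.11 (edgeR adjusted p = 0.00142 and 0.000114). In EWAT against NWAT, Col4a4 was higher by 0.56 ± 0.11 (edgeR adjusted p = 0.00250) and Col4a3 by 0.45 ± 0.13 (adjusted p = 0.0242), the latter lost without EWAT replicate 1 (0.28), NWAT replicate 1 (0.45) or NWAT replicate 2 (0.44). In SWAT against EWAT, Col4a4 was higher by 0.34 ± 0.11 (edgeR adjusted p = 0.0264), a call lost without either SWAT library (0.41 and 0.28), EWAT replicate 2 (0.26) or NWAT replicate 1 (0.34) and on log2(FPKM + 1) (0.12). Col4a3 did not pass there (0.32 ± 0.13, edgeR adjusted p = 0.0698).

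Col4a5 and Col4a6, chains found together in the basement membranes of smooth muscle and some epithelia, had their highest levels in EWAT. Col4a5 (chrX:141475370-141689236) stood at 267 and 256 CPM in SWAT, 552 and 479 in EWAT and 211 and 187 in NWAT. Col4a6 (chrX:141165403-141474095) stood at 8.01 and 8.28 in SWAT, 106 and 95.8 in EWAT and 15.8 and 15 in NWAT. No depots overlapped for either gene, but SWAT and NWAT changed places between them. Col4a5 was 1.97-fold higher in EWAT than in SWAT (log2 -0.98 ± 0.12 as SWAT minus EWAT, edgeR adjusted p = 6.50e-05) and 2.59-fold higher than in NWAT (1.37 ± 0.12, adjusted p = 7.64e-06). Col4a6 was 12.4-fold higher in EWAT than in SWAT (-3.63 ± 0.12, edgeR adjusted p = 1.78e-09) and 6.55-fold higher than in NWAT (2.71 ± 0.11, adjusted p = 3.88e-08). Unlike the other head-to-head collagen IV genes, this pair did not keep its ratio. Col4a6 over Col4a5 on the FPKM scale was 0.0293 and 0.0321 in SWAT, 0.187 and 0.197 in EWAT and 0.0730 and 0.0782 in NWAT. In SWAT against NWAT, Col4a6 was lower by 0.92 ± 0.12 (edgeR adjusted p = 0.000236; log2 -0.92). Col4a5 was higher there by 0.39 ± 0.12 (edgeR adjusted p = 0.0385), a call lost without either SWAT library (0.36 and 0.43), without either NWAT library (0.48 and 0.31) and on log2(FPKM + 1) (0.20).

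Collagen VIII forms hexagonal lattices under endothelium and in remodelling vessels. Col8a1 stood at 4.83 and 4.54 CPM in SWAT, 43.8 and 31.8 in EWAT and 9.11 and 6.60 in NWAT. Col8a2 stood at 0.27 and 0.42 in SWAT, 8.83 and 12.5 in EWAT and 7.87 and 7.52 in NWAT. SWAT was lowest for both, but NWAT lay near SWAT for Col8a1 and near EWAT for Col8a2. Col8a1 was higher in EWAT by 8.06-fold against SWAT (log2 -3.01 ± 0.20 as SWAT minus EWAT, edgeR adjusted p = 1.02e-06) and 4.799-fold against NWAT (2.26 ± 0.19, adjusted p = 9.19e-06). Col8a2 was 30.02-fold higher in EWAT than in SWAT (-4.91 ± 0.30, edgeR adjusted p = 2.05e-07) and 21.7-fold higher in NWAT than in SWAT (-4.44 ± 0.31, adjusted p = 1.87e-06). It passed the count filter through its 2 higher depots, and its difference between EWAT and NWAT did not pass (0.47 ± 0.19, adjusted p = 0.0894). The lower level of Col8a1 in SWAT than in NWAT (-0.75 ± 0.22, edgeR adjusted p = 0.0354) was lost without either SWAT library (-0.79 and -0.70) or NWAT replicate 1 (-0.49) and on log2(FPKM + 1) (-0.49). Col10a1, the collagen of hypertrophic cartilage, had 3 counts in all. Of 8 tested pericyte and smooth muscle markers, 5 were also higher in EWAT than in SWAT, Myh11 among them. The other 3, Pdgfrb, Kcnj8 and Cspg4, were lower there. Of all genes, 18.7% and 18.0% were called in these directions. Kcnj8 passed the count filter only through SWAT, where it was high, so it is no support. Higher in EWAT than in SWAT were also 5 of 6 tested mesothelial markers, beside 18.7% of all genes, with the sixth, Krt19, lower there. Those 5 mesothelial markers passed the count filter through depots where they were high, so their count is no support. The part of such cells in these differences was not tested.

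**Figure D3:**
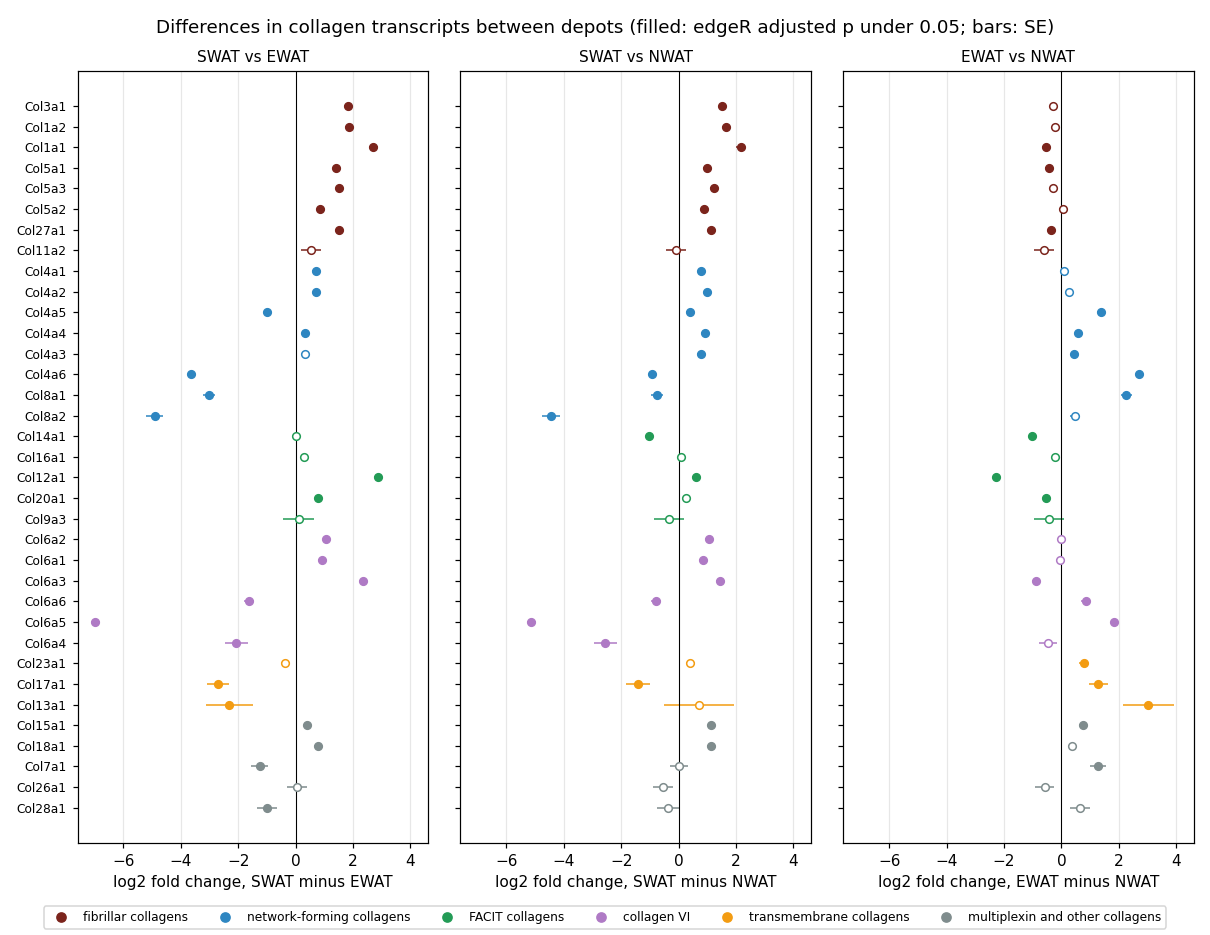
Log2 fold changes of the 35 tested collagen genes in the 3 comparisons, with bars for the SE and filled points for an edgeR adjusted p under 0.05, coloured by class. The 7 called fibrillar genes lie right of 0 in SWAT against EWAT and NWAT, while Col6a5 reaches -6.98 and -5.13 (-3.80 and -2.23 if summed with Col6a6).

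FACIT collagens sit on the surface of fibrils. Col12a1, which binds type I fibrils and is typical of load-bearing tissue, stood at 137 and 161 CPM in SWAT, 21.7 and 19.1 in EWAT and 106 and 90.1 in NWAT. EWAT lay far below both other depots. It was 7.32-fold higher in SWAT than in EWAT (log2 2.87 ± 0.13, edgeR adjusted p = 2.31e-08) and 4.81-fold higher in NWAT than in EWAT (-2.27 ± 0.13 as EWAT minus NWAT, adjusted p = 3.28e-07). The smaller difference of SWAT from NWAT (0.61 ± 0.12, edgeR adjusted p = 0.00418) was lost without SWAT replicate 2 (0.49) or NWAT replicate 2 (0.50) and on log2(FPKM + 1) (0.38). Col14a1, the close relative of Col12a1 found on fibrils of loose tissue, had another order, with 1014 and 954 CPM in SWAT, 1013 and 961 in EWAT and 2188 and 1811 in NWAT. It was 2.03-fold higher in NWAT than in each other depot (log2 -1.02 ± 0.13 in both comparisons, edgeR adjusted p = 0.000167 against SWAT and 0.000128 against EWAT), and SWAT and EWAT overlapped. Col12a1 over Col14a1 on the FPKM scale was 0.0891 and 0.111 in SWAT, 0.0135 and 0.0121 in EWAT and 0.0322 and 0.0325 in NWAT.

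Col20a1, a lesser known FACIT chain, stood at 30.2 and 29.2 CPM in SWAT, 18.8 and 15.5 in EWAT and 24.6 and 24.7 in NWAT. EWAT was lowest, by 0.79 ± 0.12 against SWAT (edgeR adjusted p = 0.000341) and by 0.53 ± 0.12 against NWAT (log2 -0.53 as EWAT minus NWAT, adjusted p = 0.00720). Col16a1 stood at 165 and 166, 133 and 139, and 166 and 149 CPM, and no pair passed (edgeR adjusted p = 0.0541 for SWAT against EWAT, log2 0.28 ± 0.10, which DESeq2 called). On log2(FPKM + 1) this difference had the opposite sign (-0.05). Col9a3 passed the filter at 0.42 to 1.02 CPM without a call, and Col9a1, Col9a2 and Col22a1, with 5, 15 and 7 counts in all, were not tested.

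Collagen VI genes differed in opposite directions. Filaments of collagen VI need the Col6a1 and Col6a2 chains and one further chain, which can be that of Col6a3 or of Col6a4, Col6a5 or Col6a6. In both comparisons with SWAT, Col6a1, Col6a2 and Col6a3 were higher in SWAT and Col6a4, Col6a5 and Col6a6 lower. Col6a1 stood at 5519 and 5367 CPM in SWAT, 2878 and 2945 in EWAT and 3060 and 3032 in NWAT. Col6a2 stood at 6119 and 5921 in SWAT, 2854 and 2907 in EWAT and 2838 and 2997 in NWAT. EWAT and NWAT were close for both genes, with overlap for Col6a2. Col6a1 was 1.87-fold higher in SWAT than in EWAT (log2 0.90 ± 0.12, edgeR adjusted p = 0.000106) and 1.79-fold higher than in NWAT (0.84 ± 0.12, adjusted p = 0.000356). Col6a2 was 2.09-fold and 2.06-fold higher (1.06 ± 0.12 and 1.04 ± 0.12, edgeR adjusted p = 3.15e-05 and 7.25e-05). Their FPKM ratio, Col6a1 over Col6a2, lay between 0.857 and 1.03 in all libraries.

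Col6a3 (chr1:90766860-90844001), the usual partner of those 2 chains and the source of the fragment endotrophin, stood at 7781 and 8381 CPM in SWAT, 1730 and 1455 in EWAT and 2955 and 2973 in NWAT. All 3 depots stood apart. It was 5.07-fold higher in SWAT than in EWAT (log2 2.34 ± 0.14, edgeR adjusted p = 1.28e-07), 2.73-fold higher than in NWAT (1.45 ± 0.13, adjusted p = 1.39e-05) and 1.86-fold higher in NWAT than in EWAT (-0.90 ± 0.13 as EWAT minus NWAT, adjusted p = 0.000353). Col6a5 (chr9:105856070-105962463) ran the other way, with 16.5 and 17.1 CPM in SWAT, 2322 and 1909 in EWAT and 602 and 576 in NWAT. The libraries of a depot lay close together and the depots far apart. It was 126-fold higher in EWAT than in SWAT (log2 -6.98 ± 0.17 as SWAT minus EWAT, edgeR adjusted p = 2.78e-10), 35.1-fold higher in NWAT than in SWAT (-5.13 ± 0.15, adjusted p = 2.93e-09) and 3.59-fold higher in EWAT than in NWAT (1.84 ± 0.13, adjusted p = 1.40e-06). These folds rest on how reads were divided between Col6a5 and Col6a6. With both counted as 1 gene, an alternative chosen after the data were seen, they were 14.0-fold (-3.80 ± 0.15), 4.68-fold (-2.23 ± 0.14) and 2.99-fold (1.58 ± 0.14), with edgeR adjusted p = 7.40e-09, 9.51e-07 and 6.88e-06. Col6a6 (chr9:105689417-105828246) stood at 175 and 169 CPM in SWAT, 636 and 419 in EWAT and 308 and 282 in NWAT. It was 3.06-fold higher in EWAT than in SWAT (-1.61 ± 0.17, edgeR adjusted p = 4.31e-05) and 1.79-fold higher than in NWAT (0.84 ± 0.17, adjusted p = 0.00449). Its lower level in SWAT than in NWAT (-0.78 ± 0.17, edgeR adjusted p = 0.00921) was lost without either SWAT library (-0.80 and -0.75) or NWAT replicate 1 (-0.71).

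Col6a4, the third gene of this chromosome 9 cluster (chr9:105990318-106096828), was rare, with 0.27 and 0.42 CPM in SWAT, 1.45 and 1.53 in EWAT and 2.05 and 2.09 in NWAT. It passed the count filter through EWAT and NWAT and was lower in SWAT by 2.07 ± 0.40 against EWAT and 2.55 ± 0.39 against NWAT (log2 -2.07 and -2.55, edgeR adjusted p = 0.00208 and 0.000745). Col6a4, Col6a5 and Col6a6 lie in one row on the minus strand, 27823 and 27854 bases apart. The estimated counts of Col6a5 and Col6a6 were not whole numbers in any library, yet their sum was whole to within rounding in 6 of 6 libraries, from 3498 to 63344 counts, so the authors' counting may have divided reads between these 2 related genes. The split between them is uncertain, and the sum was 3498 and 3536 counts in SWAT, 63344 and 51820 in EWAT and 19081 and 17693 in NWAT. The sums did not overlap between depots and had the order of Col6a5.

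Within the sum of FPKM over these 4 alternative chains, Col6a3 made up 97.0% and 97.3% in SWAT, 36.0% and 37.8% in EWAT and 75.0% and 76.2% in NWAT. Col6a5 made up 0.199% and 0.193%, 47.0% and 48.2%, and 14.9% and 14.4%. Col6a6 made up 2.81% and 2.53%, 16.9% and 13.9%, and 10.04% and 9.29%. Col6a5 thus exceeded Col6a3 in both EWAT libraries, at a ratio of 1.31 and 1.27, against 0.199 and 0.189 in NWAT and 0.00205 and 0.00199 in SWAT. In the order of collagen FPKM within a library, Col6a5 held places 23 and 24 for SWAT, 9 and 12 for EWAT and 14 in both NWAT libraries. The summed FPKM of these chains was 784 and 865 in SWAT, 553 and 455 in EWAT and 448 and 439 in NWAT. These shares rest on the same division of reads between Col6a5 and Col6a6 and give no measure of assembled protein. The summed mesothelial markers, almost all Wt1 in EWAT and NWAT, were also lowest in SWAT and highest in EWAT. Krt19 of that list made up most of the sum in SWAT and was lowest in EWAT. The defining markers Msln and Upk3b reached at most 1.30 and 3.64 CPM, both in EWAT. The part of these cells in the difference was not tested.

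**Figure D4:**
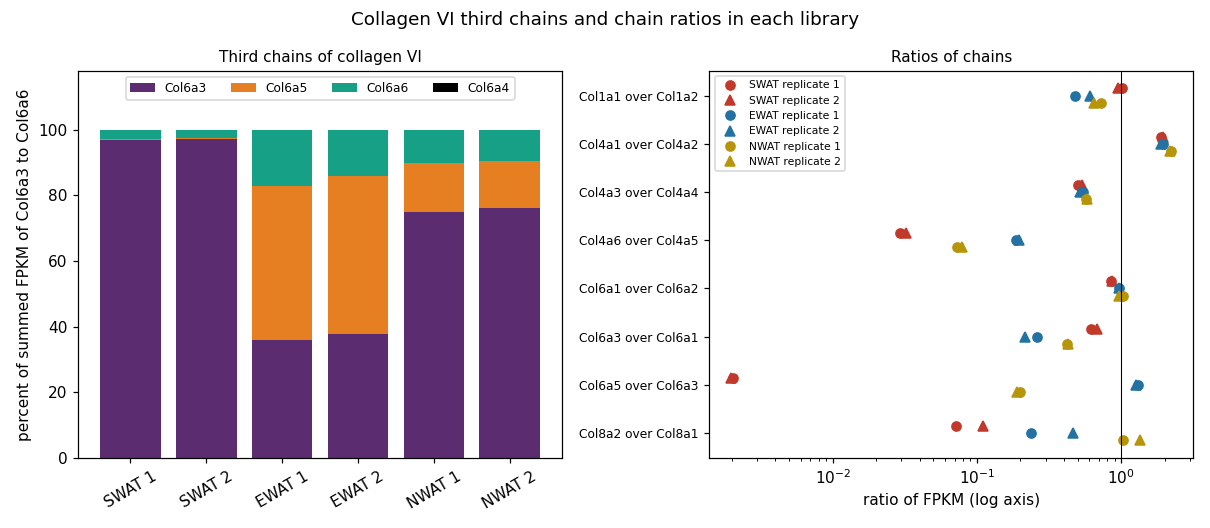
Left, percent of the summed FPKM of Col6a3, Col6a4, Col6a5 and Col6a6 (the third chains of the plot's title) taken by each gene in each library. Right, FPKM ratios of chains on a log axis, 1 point per library, where Col6a5 over Col6a3 runs from 0.00199 to 1.31 and Col4a1 over Col4a2 stays between 1.89 and 2.23.

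Multiplexins are basement membrane collagens that carry the fragments endostatin (Col18a1) and restin (Col15a1). Col15a1 stood at 2131 and 2465 CPM in SWAT, 1720 and 1762 in EWAT and 1008 and 1067 in NWAT. Col18a1 stood at 495 and 620 in SWAT, 338 and 317 in EWAT and 265 and 247 in NWAT. Both had the order SWAT, EWAT, NWAT with no overlap. Col15a1 was 2.21-fold higher in SWAT than in NWAT (log2 1.15 ± 0.12, edgeR adjusted p = 4.83e-05) and 1.68-fold higher in EWAT than in NWAT (0.75 ± 0.12, adjusted p = 0.000883). Its difference of SWAT from EWAT (0.40 ± 0.12, edgeR adjusted p = 0.0239) was lost without SWAT replicate 2 (0.29) or EWAT replicate 1 (0.38) and on log2(FPKM + 1) (0.15). Col18a1 was higher in SWAT by 1.70-fold against EWAT (0.77 ± 0.13, edgeR adjusted p = 0.000758) and 2.18-fold against NWAT (1.12 ± 0.13, adjusted p = 8.73e-05), and EWAT against NWAT did not pass (0.36 ± 0.13, adjusted p = 0.0593).

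The transmembrane collagens were low transcripts. Col23a1, a transmembrane collagen, stood at 8.88 and 11.9 CPM in SWAT, 13.8 and 12.9 in EWAT and 7.78 and 7.86 in NWAT, and was higher in EWAT than in NWAT by 0.77 ± 0.16 (edgeR adjusted p = 0.00377), while SWAT against EWAT did not pass (-0.35 ± 0.15, edgeR adjusted p = 0.0933). Col17a1, a hemidesmosome component of epithelia, stood at 0.66 and 0.32 CPM in SWAT, 2.90 and 3.46 in EWAT and 1.43 and 1.16 in NWAT. SWAT was lowest in both libraries. Col17a1 differed between SWAT and EWAT by -2.70 ± 0.38 (edgeR adjusted p = 0.000193). Its differences of SWAT from NWAT (-1.41, edgeR adjusted p = 0.0343) and of EWAT from NWAT (1.29, adjusted p = 0.0108) rested on few counts. The former was lost without SWAT replicate 2 (-0.97), NWAT replicate 1 (-1.25) or NWAT replicate 2 (-1.55) and stood at -2.01 without SWAT replicate 1. The latter was lost without EWAT replicate 2 (1.15) or NWAT replicate 2 (1.15). Col13a1, a collagen of neuromuscular junctions, had 6 and 0 counts in SWAT, 24 and 12 in EWAT and 2 in each NWAT library. It was called higher in EWAT than in both other depots (edgeR adjusted p = 0.0473 against SWAT and 0.0264 against NWAT). The call against SWAT was lost without SWAT replicate 2 (-1.31), EWAT replicate 1 (-1.70), NWAT replicate 1 (-2.31) or NWAT replicate 2 (-2.31), and the value moved to -7.12 without SWAT replicate 1. The call against NWAT was lost without EWAT replicate 1 (2.41), NWAT replicate 1 (3.01) or NWAT replicate 2 (3.04).

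Col7a1, the anchoring fibril collagen of skin, stood at 1.43 and 2.64 CPM in SWAT, 5.00 and 4.76 in EWAT and 2.19 and 1.84 in NWAT. EWAT was highest in both libraries. It was higher there by 1.26 ± 0.28 against SWAT (log2 -1.26 as SWAT minus EWAT, edgeR adjusted p = 0.00515) and by 1.27 ± 0.28 against NWAT (adjusted p = 0.00612), the latter lost without NWAT replicate 2 (1.15). Col28a1, a collagen known from peripheral nerve, stood at 1.04 and 1.69 CPM in SWAT, 2.29 and 3.19 in EWAT and 1.29 and 2.23 in NWAT. Its only call, SWAT below EWAT (-0.9998 ± 0.36, edgeR adjusted p = 0.0469), was lost without SWAT replicate 1 (-0.70), SWAT replicate 2 (-1.39) or EWAT replicate 2 (-0.73). Col26a1 passed the filter at 1.27 to 2.72 CPM with no call, and Col25a1, with 1 count in all, was not tested. Col13a1, Col17a1, Col6a4 and Col8a2 passed the filter through the depots where they were high, so a difference was built into their passing.

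The machinery that makes collagen was read from 4 lists. Of 22 genes of procollagen folding and modification, 11 were higher and 3 lower in SWAT than in EWAT, beside 18.0% and 18.7% of all genes, and the list's median log2 fold change was 0.28. P4ha3 among the higher and P3h2 among the lower genes passed the filter only through depots where they were high. They are no support when set beside all genes. The count of higher genes was 7 without SWAT replicate 1, and on log2(FPKM + 1) it was 6, with 5 lower. In SWAT against NWAT, 10 were higher and 0 lower in edgeR, beside 9.07% and 9.83% of all genes, with a median of 0.32. At an unadjusted p under 0.05 the lower genes numbered 3, DESeq2 called 1, and on log2(FPKM + 1) there were 6 higher and 3 lower. The higher genes numbered 6 without NWAT replicate 1 and without NWAT replicate 2, and the lower genes 1 without SWAT replicate 2 and 2 without either EWAT library. P4ha2, a prolyl hydroxylase subunit, was 2.19-fold higher in SWAT than in EWAT (log2 1.13 ± 0.14, edgeR adjusted p = 0.000106) and 1.98-fold higher than in NWAT (0.98 ± 0.14, adjusted p = 0.000567). Serpinh1, which codes for HSP47, stood at 2737 and 2608 CPM in SWAT, 1321 and 1413 in EWAT and 1639 and 2022 in NWAT. It was 1.96-fold higher in SWAT than in EWAT (0.97 ± 0.13, edgeR adjusted p = 0.000173). Plod1, a lysyl hydroxylase of the helix, was 2.07-fold higher in SWAT than in NWAT (1.05 ± 0.10, edgeR adjusted p = 2.66e-05). Plod2, the lysyl hydroxylase of the telopeptides, and Colgalt2, a collagen galactosyltransferase, were lower in SWAT than in EWAT (-0.87 ± 0.12 and -1.18 ± 0.12, edgeR adjusted p = 0.000226 and 1.62e-05).

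Between EWAT and NWAT the folding genes were mixed, with 5 higher and 4 lower, beside 13.3% and 14.0% of all genes, and a median of 0.03. Here P3h2 was among the higher and P4ha3 among the lower genes, with the same limit from the filter. Colgalt2 was higher in EWAT (0.85 ± 0.12, edgeR adjusted p = 0.000254). Crtap, part of the prolyl hydroxylation complex, was also higher (0.54 ± 0.12, edgeR adjusted p = 0.00694), a call lost without NWAT replicate 2 (0.49). Serpinh1 was lower in EWAT (-0.42 ± 0.13, edgeR adjusted p = 0.0339), lost without EWAT replicate 1 (-0.37), EWAT replicate 2 (-0.47) or NWAT replicate 2 (-0.26). P4ha1, another prolyl hydroxylase subunit, was lower (-0.40 ± 0.13, edgeR adjusted p = 0.0338), lost without either SWAT library (-0.40 and -0.40), EWAT replicate 2 (-0.33) or NWAT replicate 2 (-0.23). The count of higher genes was 2 without NWAT replicate 1, and that of lower genes 2 without either SWAT library and 1 without EWAT replicate 1, EWAT replicate 2 or NWAT replicate 2.

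Of 12 tested genes of procollagen export, 4 were higher and 1 lower in SWAT than in EWAT (median 0.16), 1 higher and 1 lower in SWAT than in NWAT (0.12) and 1 higher and 3 lower in EWAT than in NWAT (-0.05). The shares of all genes were 18.0% and 18.7%, 9.07% and 9.83%, and 13.3% and 14.0%, so that 1 of 12 in each direction in SWAT against NWAT was near them. Creb3l1, a membrane-bound transcription factor of collagen-secreting cells, stood at 538 and 429 CPM in SWAT, 196 and 208 in EWAT and 208 and 221 in NWAT. It was higher in SWAT by 1.26 ± 0.13 against EWAT and 1.17 ± 0.13 against NWAT (edgeR adjusted p = 1.51e-05 and 5.30e-05). The remaining named calls of this list were smaller, and most were lost when 1 library was left out. The 4 higher genes became 1 without SWAT replicate 1, and the 1 lower gene became 0 without SWAT replicate 2 or EWAT replicate 2. In SWAT against NWAT the 1 higher gene became 2 without either EWAT library, and the 1 lower gene 0 without SWAT replicate 2 or NWAT replicate 1. In EWAT against NWAT the 1 higher gene became 0 without EWAT replicate 2 or NWAT replicate 1 and 2 without EWAT replicate 1. Mia3, which codes for the cargo receptor TANGO1, was higher in SWAT than in EWAT (0.43, edgeR adjusted p = 0.0100; 0.40 and not called without SWAT replicate 1). Sar1b, a coat GTPase, was lower in SWAT than in EWAT (-0.42, edgeR adjusted p = 0.0225), lost without SWAT replicate 2 (-0.34) or EWAT replicate 2 (-0.28). It was higher in EWAT than in NWAT (0.44, edgeR adjusted p = 0.0238), lost without EWAT replicate 2 (0.30) or NWAT replicate 1 (0.35). Larp6, which binds collagen messenger RNA, was highest in NWAT, by 0.68 ± 0.13 against EWAT (log2 -0.68, edgeR adjusted p = 0.00201) and by 0.51 ± 0.13 against SWAT (-0.51, adjusted p = 0.0147), the latter lost without SWAT replicate 2 (-0.34) or NWAT replicate 1 (-0.43). Creb3l2 was lower in EWAT than in NWAT (-0.38, edgeR adjusted p = 0.0325), lost without any 1 of the libraries but EWAT replicate 1 (-0.24 to -0.40). The 3 lower genes there became 1 without any of those same libraries.

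Genes of procollagen processing and cross-linking held larger differences. Of 14 tested, 8 were higher and 3 lower in SWAT than in EWAT (median 0.39), 4 higher and 2 lower in SWAT than in NWAT (0.05), and 2 higher and 5 lower in EWAT than in NWAT (-0.30). Of all genes, 18.0% and 18.7%, 9.07% and 9.83%, and 13.3% and 14.0% were called, so the 3 lower of 14 in SWAT against EWAT and the 2 higher of 14 in EWAT against NWAT were near that share. Tll2, among the lower genes of SWAT in both comparisons, passed the filter only through depots where it was high. It stood at 0.49 and 0.37 CPM in SWAT, 9.06 and 6.83 in EWAT and 7.40 and 4.56 in NWAT. Tll2 is no support when set beside all genes. The 8 became 4 without SWAT replicate 1 and on log2(FPKM + 1), and the 5 became 2 without NWAT replicate 1 and 3 without NWAT replicate 2 and on log2(FPKM + 1), while DESeq2 called 8. Pcolce, the enhancer of C-propeptide cleavage, stood at 1607 and 1662 CPM in SWAT, 366 and 439 in EWAT and 606 and 742 in NWAT, with no overlap. It was 4.06-fold higher in SWAT than in EWAT (log2 2.02 ± 0.14, edgeR adjusted p = 6.47e-07), 2.43-fold higher than in NWAT (1.28 ± 0.14, adjusted p = 5.21e-05) and lower in EWAT than in NWAT (-0.74 ± 0.14, adjusted p = 0.00197). Tll1, a C-proteinase of the BMP1 family, had the same order at a far lower level, with 13.4 and 13.3 CPM in SWAT, 1.91 and 1.39 in EWAT and 6.30 and 5.24 in NWAT. It differed by 3.01 ± 0.20 (edgeR adjusted p = 4.29e-07), 1.21 ± 0.17 (adjusted p = 0.000451) and -1.80 ± 0.21 (adjusted p = 7.05e-05) in the 3 comparisons. Adamts3, an N-proteinase of procollagen, ran the other way, at 2.19 and 2.22 CPM in SWAT, 11.3 and 11.2 in EWAT and 5.34 and 5.87 in NWAT. It differed by -2.35 ± 0.18 (edgeR adjusted p = 1.21e-06), -1.34 ± 0.19 (adjusted p = 0.000342) and 1.01 ± 0.16 (adjusted p = 0.000599). Tgm2, the tissue transglutaminase, was highest in EWAT, at 127 and 124 CPM, against 27.6 and 32.5 in SWAT and 34.3 and 42.2 in NWAT (-2.06 ± 0.13 against SWAT and 1.71 ± 0.12 against NWAT, edgeR adjusted p = 1.99e-07 and 1.71e-06).

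Of 9 tested collagen receptor genes, 6 were higher and 2 lower in SWAT than in EWAT (median 0.85), 1 higher and 1 lower in SWAT than in NWAT (0.01), and 1 higher and 6 lower in EWAT than in NWAT (-0.70). Of all genes, 18.0% and 18.7%, 9.07% and 9.83%, and 13.3% and 14.0% were called, and 1 of 9 in each direction in SWAT against NWAT was near that share. The 6 lower genes became 3 without NWAT replicate 1, and the 2 lower genes against EWAT became 1 without any 1 of the libraries but EWAT replicate 2. Mrc2, the uptake receptor for collagen fragments, was higher in SWAT than in EWAT by 1.25 ± 0.11 and than in NWAT by 0.69 ± 0.11 (edgeR adjusted p = 4.90e-06 and 0.000931). Itga2, a collagen-binding integrin chain, was higher in SWAT than in EWAT by 1.46 ± 0.26 (edgeR adjusted p = 0.00147) and lower in EWAT than in NWAT (-1.20 ± 0.26, adjusted p = 0.00653), the latter lost without NWAT replicate 1 (-0.96). Itga11, the integrin chain of fibroblasts for fibrillar collagen, was lower in EWAT than in NWAT (-1.12 ± 0.11, edgeR adjusted p = 2.26e-05). The receptor tyrosine kinases Ddr1 and Ddr2 differed in order. Ddr1 was highest in EWAT (-0.66 ± 0.10 as SWAT minus EWAT and 0.67 ± 0.10 as EWAT minus NWAT, edgeR adjusted p = 0.000362 and 0.000420), and Ddr2 was lower in SWAT than in NWAT (-0.80 ± 0.16, adjusted p = 0.00424). Itgb1, the shared beta chain, was lower in SWAT than in EWAT (-0.33 ± 0.11, edgeR adjusted p = 0.0326), a call lost without any 1 of the libraries but EWAT replicate 2 (-0.31 to -0.34).

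**Figure D5:**
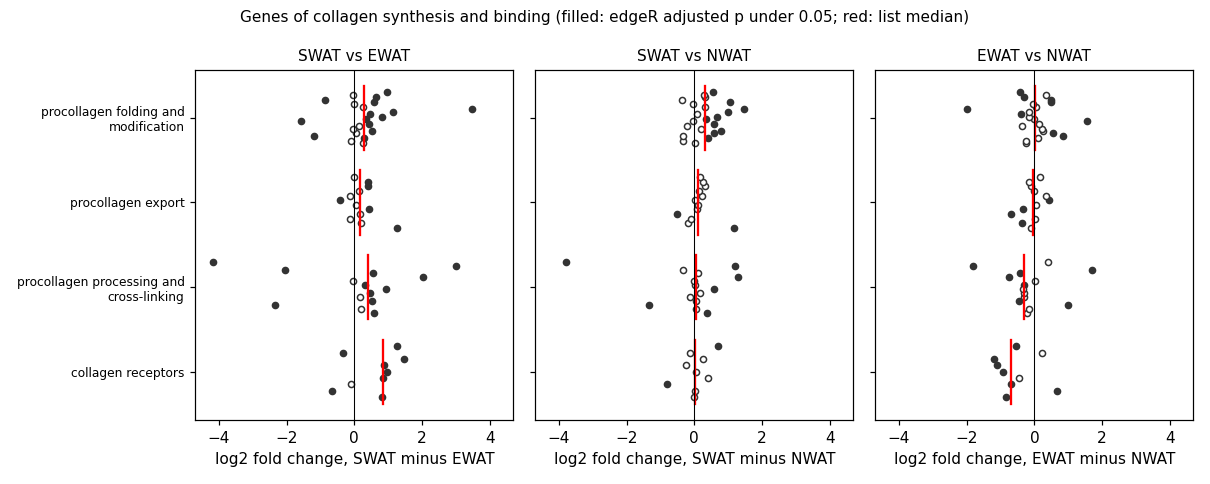
Log2 fold changes of genes of procollagen folding, export, processing and cross-linking and of collagen receptors in the 3 comparisons, 1 point per tested gene, filled for an edgeR adjusted p under 0.05, with red lines at the list medians. The medians lie at 0.16 to 0.85 in SWAT against EWAT and at -0.70 to 0.03 in EWAT against NWAT.

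The genes nearest to 3 collagens in pattern were sought by Pearson's r of log2 CPM over the 6 libraries among the 10531 tested genes averaging 2 or more on that scale. Libraries fall into 3 depots, so r mainly follows the depot means, and it is given as a description. For Col1a1 the nearest 5 were Arfgap1, Unc45b, P3h4, Rrp1b and Tcf7l1 (r from 0.996 to 0.998), and 265 genes exceeded 0.95. P3h4, which acts with lysyl hydroxylase on collagen, stood at 53.0 and 49.9 CPM in SWAT, 27.1 and 31.0 in EWAT and 33.5 and 31.5 in NWAT. For Col6a5 they were Susd2, Rspo1, P2ry2, Hp and Ezr (0.998 to 0.999), with 312 genes above 0.95. For Col4a6, Fbln2, Gpm6b, Gnao1 and Cdk8 were among the nearest 5 (0.998 to 1.00), with 353 genes above 0.95. Fbln2, a fibulin of basement membranes and elastic fibres, stood at 913 and 917 CPM in SWAT, 1449 and 1407 in EWAT and 1022 and 1014 in NWAT, a far smaller range than that of Col4a6.

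The scaling of the libraries bears on how many collagens are called higher in SWAT. On log2(FPKM + 1) all genes tested shifted by a median of -0.22 in SWAT against EWAT and -0.17 in SWAT against NWAT, and the share of calls that were higher in SWAT was 20% and 20.4% against 49.1% and 48.0% on TMM-scaled counts. Collagens called higher in SWAT then numbered 15 and 16. No called difference of a named collagen changed sign under any alternative, and 55 of 73 called differences were tested and passed under every planned one.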

How the data were processed

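Bulk RNA sequencing of adipose-derived stem cells was analysed in 6 libraries of 3 depots. The authors deposited estimated counts per gene symbol, which are not normalized, per the file headers. A second deposited table gives FPKM, which scale by gene length and library size, per the file headers. The submitters' processing notes list Seurat, Cell Ranger and GRCm38.p6 but no version or role. Aligner, counter and strand setting were not given in the sources used here, so reads of overlapping genes, such as the ends of Col4a1 and Col4a2, cannot be told apart. Columns were matched to samples by depot letter and replicate number, and 2 columns per table that match no label were left out.

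Estimated counts were rounded, and for repeated symbols the entry with the larger total was kept. In R 4.3.3, edgeR 4.0.16 was run on all libraries together by quasi-likelihood, with depot as the only factor (TMM, filterByExpr at 10 counts and 15 in total, robust dispersions, 3 residual degrees of freedom), after it was tested on simulated data. P-values were adjusted over all 13694 genes tested by the Benjamini-Hochberg method at 0.05. Each SE was obtained as the size of the log2 fold change over the root of F. DESeq2 1.42.0, limma 3.58.1 on log2(FPKM + 1) and log2(FPKM + 0.1), other filters and scalings, a replicate block and leaving out each library were the alternatives. Summing Col6a5 and Col6a6 was added after seeing the data. Collagens averaging 3 or more in log2 CPM, and rarer ones called in any pair, were named with values. Of the 4 pathway lists, the 2 called genes with the largest change in each direction per pair were named, if they averaged 2 or more in log2 CPM. P3h2, P4ha3 and Tll2, which averaged less, were named for how they passed the filter. The 5 genes most like each of Col1a1, Col6a5 and Col4a6 were named, except 1 that is not reported here, and P3h4 and Fbln2 were picked for values after these were seen. The members and lists were chosen with earlier results of these data known. Same-numbered libraries did not deviate together (correlations 0.000549, 0.0375 and 0.110), so the numbers were not taken as pairs.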

Additional observations from a re-analysis of the deposited data

How the results depend on the processing

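The depth of 20026377 to 20638684 counts a library left 8 of the 43 collagens untested, and 2 libraries a depot limit every p-value. Over 96 collagen differences and all alternatives, 1227 of 1334 values kept their direction and side of the threshold, 67 were no longer called, 18 became called and 22 changed sign, none of them of a called difference. The 22 were SWAT minus EWAT of Col14a1 (0.00613 with DESeq2, 0.000257 without a count filter, 0.00396 with a count minimum of 50, and -0.0485 to 0.0400 on leaving out each library) and Col16a1 (-0.0545 and -0.0560 on log2(FPKM + 1) and log2(FPKM + 0.1)), SWAT minus NWAT of Col16a1 (-0.11 and -0.12 on the same scales, -0.00596 to 0.150 on leaving out each library), Col13a1 (-4.09 without SWAT replicate 1 to 1.71 without SWAT replicate 2), Col28a1 (-0.749 to 0.0883, the latter without NWAT replicate 2) and Col7a1 (-0.000230 with the replicate block, -0.0372 and -0.16 on the 2 FPKM scales, and -0.50 without SWAT replicate 2 to 0.385 without SWAT replicate 1), and EWAT minus NWAT of Col4a1 (-0.0454 without EWAT replicate 1 to 0.195 without EWAT replicate 2) and Col6a2 (0.0338 with upper-quartile factors, 0.0239 on both FPKM scales, and -0.0562 without NWAT replicate 1 to 0.0229 without NWAT replicate 2). The cause was not tested. Leaving out each library gave 3085 to 5672 genes over all in SWAT against EWAT, 1467 to 3323 in SWAT against NWAT and 2129 to 4884 in EWAT against NWAT, with fewer libraries behind each test. Collagens called lower ranged from 5 to 8 in SWAT against NWAT and from 4 to 7 in EWAT against NWAT. The fibrillar share in NWAT was 66.3% of collagen counts against 65.7% of FPKM. With the replicate block, 5743 genes were called in the joint test, 5043, 2595 and 3793 in the 3 pairs, and 31 collagens jointly. It called 8 collagens lower in EWAT than in NWAT, among them Col3a1 (-0.29), and changed no other call between pairs of depots for a named collagen. On log2(FPKM + 1), 57.8% of calls in EWAT against NWAT were higher in EWAT, against 48.8%.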
